A study of Sus scrofa with 14 samples.

Results

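Interferon gamma (IFNG) and 7 interferon-stimulated or interferon-regulating genes (MX1, MX2, ISG15, OAS1, USP18, IRF1 and IRF7) were followed in the mucosa of pig jejunum that had been in contact with digested onion. The 8 genes were taken with every probe whose RefSeq accession belongs to them. Of the 8 genes, 7 had a named probe, with 13 probes in all, among 6686 named probes of 3020 genes on an array of 43603 probes. MX1 had 5 probes, IRF1 and USP18 had 2 each, and IFNG, IRF7, ISG15 and MX2 had 1 each. OAS1 was not analysed here. The probes of IFNG and MX2 were also in the authors' list of genes with large ratios in several of these pigs, so that list is not independent evidence for them.

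Interferons are cytokines that cells release when they sense infection or are activated. IFNG, the type II interferon, is made mainly by T cells and natural killer (NK) cells and acts through JAK kinases on genes such as IRF1 and the CXCR3 chemokines. Type I interferons, and type III interferons in gut epithelium, act through a complex that holds STAT2 and IRF9 on a larger set of antiviral genes that includes MX1, MX2, ISG15, OAS1, USP18 and IRF7.

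In the small intestinal segment perfusion (SISP) technique, segments of the jejunum of an anaesthetised piglet keep their blood supply and are filled and perfused with a test fluid. The piglets were male, 5 weeks old and 8.2 kg, with no genetic modification named. In pigs 1, 2 and 4, a segment received yellow onion digest (YOd) and another received the saline digest control (Sd), and in pigs 5, 6, 7 and 8 the onion was white onion digest (WOd). Perfusion lasted 6 h in every segment. Per the methods, the onion digests were diluted in peptone and Sd in a saline solution with casamino acids and glucose. The control digest was also diluted further than the onion digests. The diluent, the strength of the digest and the onion therefore cannot be told apart in onion over Sd. Each segment gave RNA of 1 mucosal scraping for 1 one-colour Agilent array, 14 arrays in all. The onion types were given to different pigs, and a pig had 1 segment of each kind here, so a difference between pigs includes differences between segments.

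Between 50.6% and 70.7% of the probes were well above background on an array, and every probe of the 7 genes was so on all 14 arrays. All 6 named enterocyte markers, of 13 listed, were above the floor on every array. The arrays lay on 5 slides scanned in 2 sessions. In pigs 2 and 7, the Sd array was on another slide and in another session than the onion array, while the other 5 pigs had both arrays on 1 slide. Values are log2 of the signal over the 75th percentile of the array, so 0 is the level of that percentile, and a ratio is the log2 value of the onion segment minus that of the Sd segment of the same pig. A gene was called affected at a raw limma p under 0.05 and a fold change over 1.5, the study's thresholds.

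The scanner's upper limit touched several of these genes. The probe of ISG15, a ubiquitin-like protein that is attached to other proteins in interferon-treated cells, was saturated on 14 of 14 arrays, so no ratio is given for it. The brightest probe of MX1 was saturated on 10 arrays, and the brighter probe of USP18 on 3. Of all 2400 genes tested over the 7 pigs, 9% had a saturated spot on at least 1 array and 3.29% on every array. The probes without saturated spots are therefore given beside the brightest ones.

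IFNG was the most variable of the members apart from MX2. On the Sd arrays, IFNG was -2.35, -0.97 and -2.92 in pigs 1, 2 and 4, and -1.16, -2.82, -3.13 and -0.06 in pigs 5, 6, 7 and 8. The highest of these segments had 8.42-fold the signal of the lowest. Pigs 8, 2 and 5 were high and pigs 7, 4 and 6 low, and with 1 Sd array per pig neighbours in this order cannot be separated. The SD over the 7 Sd arrays was 1.18, larger than that of 97.6% of the genes tested, whose median SD was 0.39.

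With YOd, the onion over Sd ratio of IFNG was 0.54, -0.21 and 0.79 in pigs 1, 2 and 4. With WOd it was 0.96, 0.62, 1.84 and -0.88 in pigs 5, 6, 7 and 8. IFNG was thus higher in the onion segment of 5 of 7 pigs, and the 2 pigs in which it was lower were among the 3 with the highest Sd level. The ratio contains the Sd value, so a high Sd level by itself lowers it. The median ratio of all genes tested was 0.19, 0.03 and 0.19 in pigs 1, 2 and 4, and 0.05, 0.10, 0.09 and -0.07 in pigs 5, 6, 7 and 8. In pig 4 the 75th percentile used for scaling was 795 on the Sd array and 515 on the YOd array. The raw median signal of IFNG, before background subtraction and scaling, was 141 and 144 on these arrays. The scaled IFNG levels of the onion segments, from -2.21 to -0.20, lay within the range of the Sd segments. In limma, the log2 fold change was 0.37 ± 0.21 (SE, adjusted p = 0.399) in YOd/Sd, 0.63 ± 0.40 (adjusted p = 0.999) in WOd/Sd and 0.52 ± 0.26 (adjusted p = 0.652) over the 7 pigs. None of these passed the raw p threshold. The result turned on single pigs: without pig 8 it was 1.14 in WOd/Sd and 0.76 over the remaining pigs, and without pig 2 it was 0.66 in YOd/Sd and 0.64 over the remaining pigs, all past both thresholds. It was lower without pig 4 in YOd/Sd (0.17), and without pig 7 in WOd/Sd (0.23) and over the remaining pigs (0.30). Within the pigs whose arrays shared a slide, the mean ratio was 0.66 with YOd (pigs 1 and 4, which is the value without pig 2) and 0.23 with WOd (pigs 5, 6 and 8).

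**Figure D1:**
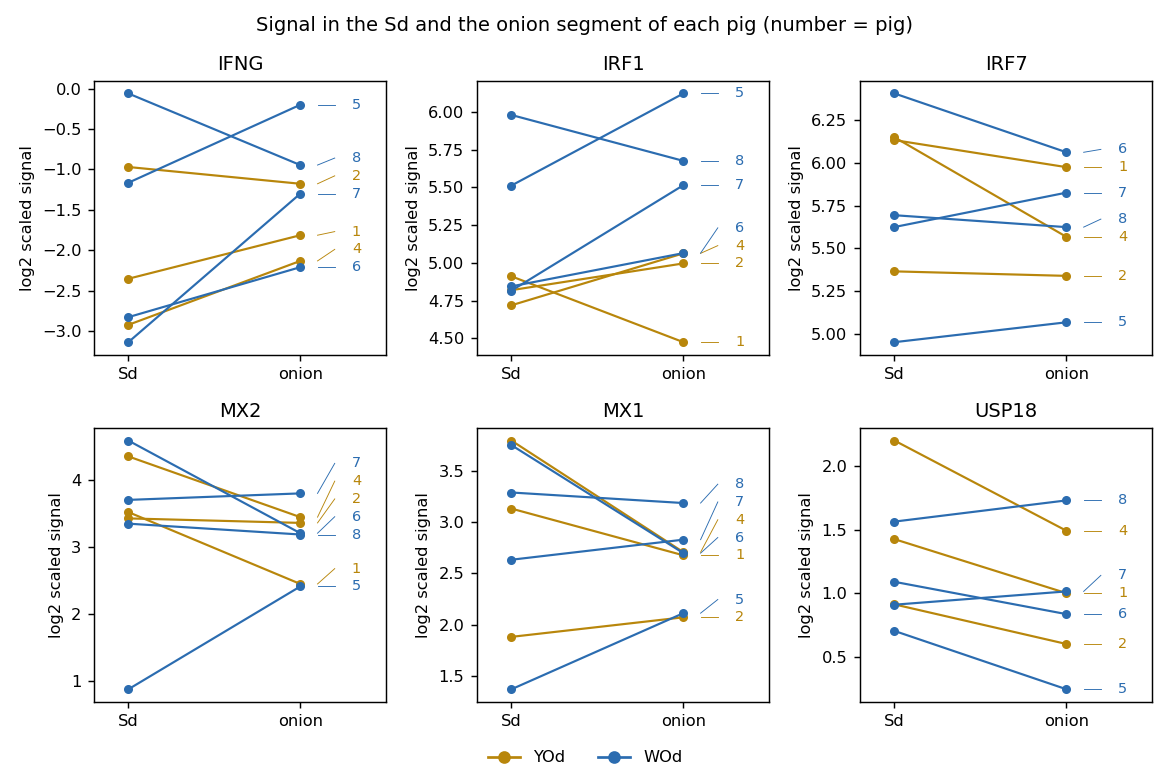
Log2 scaled signal (0 is the 75th percentile of the array) in the Sd and onion segments of each pig, for 1 probe per gene without saturated spots. Each line is a pig, coloured by onion type and numbered at its onion end. IFNG is higher at the onion end of 5 of 7 lines, while MX2 and MX1 have their lowest Sd value in pig 5, with a higher onion value there, and high Sd values in pigs 4 and 6, with lower onion values.

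Markers of T and NK lymphocytes, the main source of IFNG, differed between the same segments. Of 20 listed, 14 were named, all 14 were tested, and 13 were above the floor on every array. None of the 14 was called in YOd/Sd or WOd/Sd. Their summed scaled signal on the Sd arrays was 138, 213 and 156 in pigs 1, 2 and 4, and 340, 67.3, 92.0 and 263 in pigs 5, 6, 7 and 8. The pigs with the highest sums were thus those with the highest IFNG. The sum in the onion segment was 1.55-fold, 1.53-fold and 1.41-fold that of the Sd segment in pigs 1, 4 and 7. In pig 8 it was 0.741-fold. In pigs 2, 5 and 6 it was 1.03-fold, 1.06-fold and 1.12-fold. IFNG and the lymphocyte sum were thus both higher in pigs 1, 4 and 7 and both lower in pig 8, whereas in pigs 5 and 6 IFNG was 1.95-fold and 1.53-fold the Sd level beside a sum closer to it. CCL5 and GZMB weigh most in the sum: on the Sd array of pig 1 they were 6.08 and 5.58, and GZMA 3.30. The median ratio of the 14 markers was 0.53, 0.62, 0.52 and -0.40 in pigs 1, 4, 7 and 8, with 13, 14, 11 and 1 higher. In pig 6, 7 were higher, while CD247 had a ratio of -1.18 and CD3D -0.83, and in pig 7 CD8A had -2.33. The median ratio of all genes tested was 0.19, 0.19, 0.09 and -0.07 in pigs 1, 4, 7 and 8. The sum of 4 macrophage and dendritic cell markers was 1.29-fold, 1.32-fold and 1.08-fold in pigs 1, 4 and 7, against 0.764-fold in pig 8. The part of these markers in the IFNG ratios was not tested. In a scraping, fewer cells of a type and less RNA per cell cannot be told apart.

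**Figure D2:**
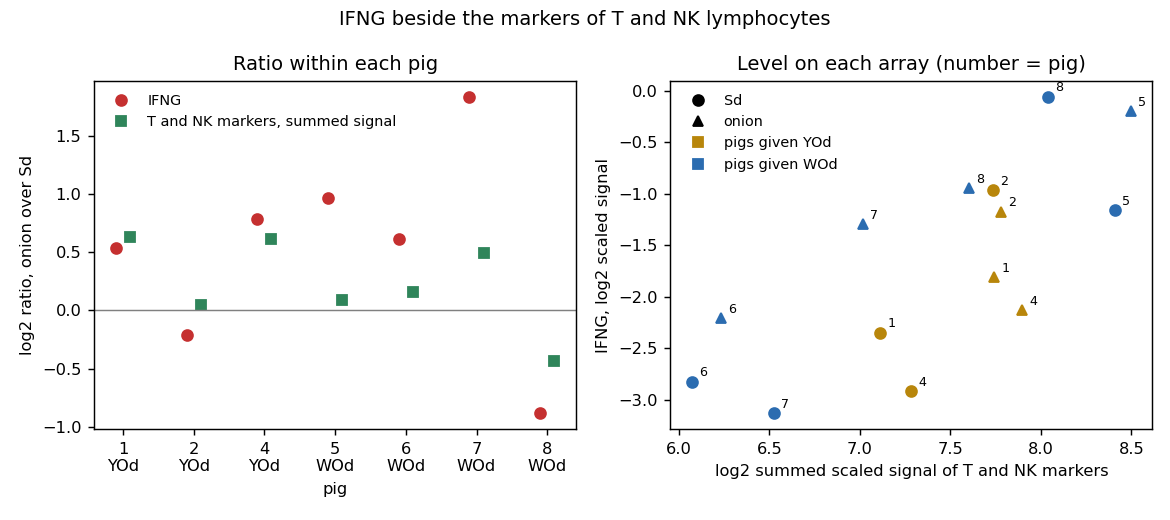
Left, log2 ratio of onion over Sd in each pig for IFNG (circles) and for the summed signal of 14 T and NK lymphocyte markers (squares). Right, the IFNG level against the log2 summed signal of these markers on the 14 arrays, with circles for Sd, triangles for onion and the pig as a number. Both arrays of pig 5 and the Sd array of pig 8 have a high marker sum and a high IFNG signal. The YOd array of pig 4 has a sum of 238 beside a low IFNG level, -2.13. Pig 7 has the largest IFNG ratio, 1.84.

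Among the transcription factors, IRF1 followed IFNG more closely than IRF7 did. IRF1 is induced directly by IFNG signalling, and IRF7 drives the later production of type I interferons. IRF1 on the Sd arrays was 4.91, 4.82 and 4.72 in pigs 1, 2 and 4, and 5.51, 4.84, 4.82 and 5.98 in pigs 5, 6, 7 and 8. The highest 2 were pigs 8 and 5, which were also among the 3 highest for IFNG. Its ratio was -0.44, 0.18 and 0.34 in the YOd pigs 1, 2 and 4, and 0.61, 0.22, 0.70 and -0.30 in the WOd pigs 5, 6, 7 and 8. IRF1 was thus higher in the onion segment of 5 of 7 pigs, with the highest ratio in pig 7 as for IFNG. The signs of IFNG and IRF1 were opposite in pig 1 (0.54 and -0.44) and in pig 2 (-0.21 and 0.18). The ranges of IRF1 in the onion and Sd segments overlapped. Over the 14 arrays, Pearson's r between IFNG and IRF1 was 0.77, a description in which the 2 arrays of a pig share the animal. The log2 fold change of IRF1 over the 7 pigs was 0.19 ± 0.15 (SE, limma adjusted p = 0.653). Its second probe gave 0.16 ± 0.16, with a sign opposite to the first in pig 2.

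IRF7 on the Sd arrays was lowest in pig 5 at 4.95 and highest in pig 6 at 6.41, with a median of 5.69. Its ratio was -0.16, -0.03 and -0.58 in pigs 1, 2 and 4, and 0.12, -0.34, 0.20 and -0.07 in pigs 5, 6, 7 and 8. IRF7 was lower in the onion segment in 3 of 3 YOd pigs and 2 of 4 WOd pigs, and the levels of both kinds of segment overlapped. The log2 fold change was -0.26 ± 0.17 in YOd/Sd (SE, limma adjusted p = 0.425) and -0.12 ± 0.11 over the 7 pigs (adjusted p = 0.703). Over the 14 arrays r was -0.64 between IRF7 and IFNG and 0.71 between IRF7 and MX2.

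MX2, a dynamin-like GTPase that restricts viruses at the nucleus, was the one member called affected. On the Sd arrays it was 3.52, 3.42 and 4.35 in pigs 1, 2 and 4, and 0.88, 4.58, 3.70 and 3.34 in pigs 5, 6, 7 and 8. Pig 5 stood far below the other 6, and the highest segment had 13.0-fold the signal of the lowest. The onion segments lay closer together, from 2.41 in pig 5 to 3.79 in pig 7. The SD over Sd arrays was 1.21, larger than that of 97.8% of the genes, against 0.51 over the onion arrays.

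The ratio of MX2 was -1.07, -0.07 and -0.90 in the YOd pigs 1, 2 and 4. It was 1.53, -1.38, 0.10 and -0.16 in the WOd pigs 5, 6, 7 and 8. In YOd/Sd, MX2 fell by 0.68 ± 0.22 on the log2 scale (SE, n = 3 pigs), past both thresholds in limma but with an adjusted p = 0.386 over the 2449 genes, none of which passed after adjustment. It was 1 of 7 named members called, in a comparison in which 4.53% of genes were called and 0.939% were called lower. The fall rested on pigs 1 and 4: the log2 fold change was -0.49 without pig 1 and -0.57 without pig 4, both no longer past the thresholds, and with all 3 pigs the levels of the YOd segments (2.45 to 3.44) and Sd segments (3.42 to 4.35) overlapped at pig 2's Sd segment and pig 4's YOd segment. Blocking by slide, so that only pigs 1 and 4 counted, gave MX2 a log2 fold change of -0.99 in YOd/Sd, past both thresholds. In WOd/Sd the log2 fold change was 0.02 ± 0.42 (limma adjusted p = 0.999), with ratios that went far in both directions. The difference, YOd effect minus WOd effect, was -0.70 ± 0.59 (adjusted p = 0.857), so that a difference between the onions was not shown. That value was -1.17, past both thresholds, without pig 6 and -0.20 without pig 5.

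No member was called in WOd/Sd, where 1.19% of genes were called, over the 7 pigs, where 1.25% were, or in the YOd effect minus the WOd effect, where 3.52% were. At a raw p under 0.05 with no fold threshold, which 11.2% of genes met in YOd/Sd, 2.76% in WOd/Sd and 7.04% over the 7 pigs, the brightest probes gave MX2 in YOd/Sd, no member in WOd/Sd, and over the 7 pigs the largely saturated probe of MX1. No gene passed an adjusted p of 0.05 in any of the 4 comparisons.

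MX1, the cytoplasmic counterpart of MX2, differed in sign between its probes. Its brightest probe had a ratio of 0.09, 0.12, 0.47, 0.92, -0.03, 0.17 and 0.21 in pigs 1, 2, 4, 5, 6, 7 and 8. Only in pigs 2 and 5 were both of its spots below the scanner's limit, and in the other 5 pigs both were saturated, so that those ratios carry mainly the scaling between 2 arrays. Its log2 fold change over the 7 pigs was 0.28 ± 0.12 (SE, limma adjusted p = 0.652). The brighter of the 2 probes without saturated spots had Sd levels of 3.13, 1.88, 3.79, 1.37, 3.75, 2.63 and 3.29 in the same order of pigs. Pig 5 was again lowest, and pigs 4 and 6 highest. The ratios of this probe were -0.46, 0.19, -1.09, 0.74, -1.05, 0.20 and -0.10, and its log2 fold change was -0.22 ± 0.21 (adjusted p = 0.711). The other probe without saturation gave -0.31 ± 0.21 (adjusted p = 0.652), with ratios of -0.73, 0.19, -0.66, 0.41, -1.49, 0.06 and 0.04. As with MX2, both were lower in the onion segments of pigs 1, 4 and 6 and higher in that of pig 5. The 2 remaining probes, saturated on 1 and 3 arrays, gave -0.06 ± 0.20 and 0.01 ± 0.17.

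USP18 removes ISG15 from proteins and restrains signalling of the type I interferon receptor. Its brighter probe had ratios of -0.26, 0.15, 0.40, 0.66, -0.51, 0.08 and -0.01 in pigs 1, 2, 4, 5, 6, 7 and 8, with Sd spots saturated in pigs 4, 6 and 8, and a log2 fold change of 0.07 ± 0.14 over the 7 pigs (SE, limma adjusted p = 0.852). The second probe, never saturated, had ratios of -0.42, -0.31, -0.71, -0.46, -0.25, 0.10 and 0.17 and a log2 fold change of -0.27 ± 0.12 (adjusted p = 0.651). In YOd/Sd the second probe was lower in 3 of 3 pigs, at -0.48, past the raw p threshold and under the fold threshold. The probes opposed each other in pigs 2, 4 and 5 and in pig 8, and in pigs 2 and 5 no spot of either was saturated.

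**Figure D3:**
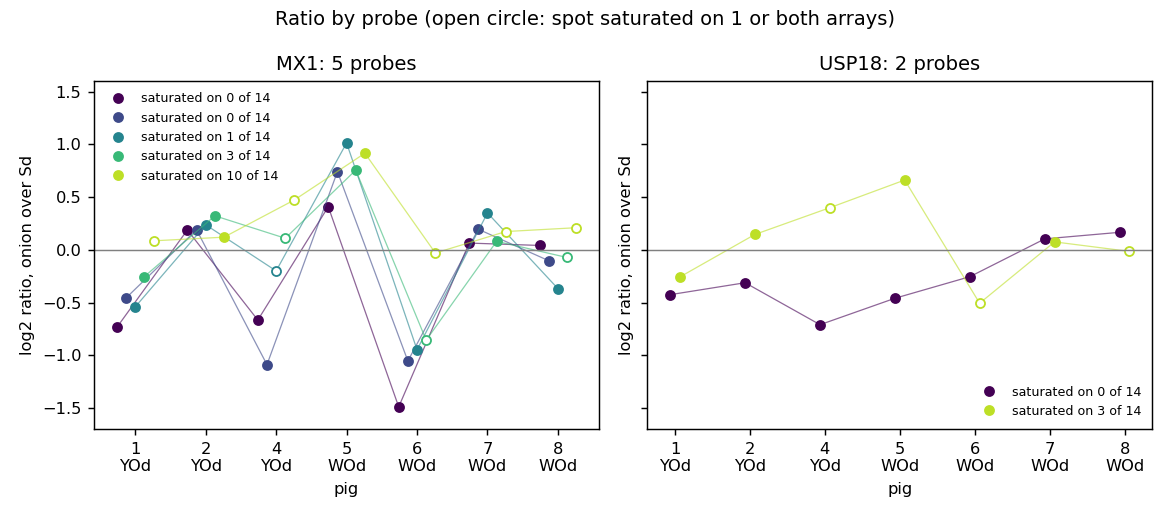
Log2 ratio of onion over Sd by pig for the 5 probes of MX1 (left) and the 2 of USP18 (right), with 1 colour per probe and open circles where 1 or both spots were saturated. In pigs 1, 4 and 6 the MX1 probes with no saturated spot lie below 0, down to -1.49, while the most saturated probe stays between -0.03 and 0.47.

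The members differed between pigs about as often as other genes. With onion or Sd as a term, the level differed between pigs at an adjusted p under 0.05 (limma F-test) for 4 of the 7 members, beside 44.6% of the 2400 genes. These were IFNG (adjusted p = 0.0202), IRF1 (0.0277), IRF7 (0.0132) and MX2 (0.04999). Of 19 alternative settings, MX2 lost its call under 15, IRF1 under 6, IFNG under 3 and IRF7 under 2. MX1 (0.145), USP18 (0.0806) and ISG15 (0.0587) did not pass with their brightest probes, whereas the unsaturated probes of MX1 (0.0350 and 0.0352) and USP18 (0.00910) did. IFNG and IRF1 were highest in the Sd segments of pig 8, while IRF7, MX2 and the unsaturated probes of MX1 were lowest in that of pig 5.

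None of the other genes of the interferon pathway was called affected. Of 91 listed genes in 5 groups, 48 had a named probe and 44 were tested, and 0 were called higher or lower in YOd/Sd, WOd/Sd or over the 7 pigs, beside 4.53%, 1.19% and 1.25% of all genes. At a limma raw p under 0.05 alone there was 1 gene in YOd/Sd, 0 in WOd/Sd and 0 over the 7 pigs, beside 11.2%, 2.76% and 7.04% of all genes. The 1 gene was FCGR1A, the high-affinity IgG receptor of phagocytes, at -0.41 ± 0.16 in YOd/Sd (SE, limma adjusted p = 0.386). In pig 2 its Sd level was -4.245 and its ratio -0.185, with the YOd array at the floor. Outside this comparison, the Sd arrays of pigs 5 and 6 were at the floor too. The median log2 fold change of the 44 genes was -0.07 in YOd/Sd and -0.06 over the 7 pigs, beside 0.14 and 0.09 for all genes tested. Between pigs, 20 of the 44 differed, 45.5% beside the 44.6% of all genes.

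Among interferons, receptors and inducers, 5 of 9 named genes were tested, and IFNB1, the interferon beta gene, IL12A, IL12B and IL12RB2 stayed too near the floor to be tested. The receptor subunits IFNAR1 and IFNGR1 had log2 fold changes of 0.00 and -0.15 over the 7 pigs. Of the signalling genes, STAT2 had 0.12 and SOCS3, an inhibitor of cytokine signalling, 0.08. Of the sensors of viral nucleic acid, IFIH1 (MDA5) and DHX58 (LGP2) had -0.24 and -0.17, and the ratio of DHX58 was -0.83, 0.56 and -0.90 in pigs 4, 5 and 6.

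The 12 antiviral interferon-stimulated genes tested lay mostly on one side within some pigs, and on opposite sides in different pigs. In pig 6, 12 of 12 were lower in the WOd segment, with a median ratio of -0.66, while 39.1% of all genes were lower there. In pig 5, 10 of 12 were higher in the WOd segment, with a median of 0.32, while 55.6% of all genes were higher. RSAD2, the antiviral enzyme viperin, had ratios of -1.98 and 1.13 in pigs 6 and 5, and of -0.84 and -0.75 in pigs 1 and 4. IFIT3, which takes part in sensing foreign RNA, was -1.93 in pig 6 and -0.69 in pig 4. On the Sd arrays RSAD2 was lowest in pig 5 at 2.54 and highest in pig 6 at 6.43, and IFIT3 likewise at 2.92 and 5.67. OAS2 and LGALS9, saturated on 13 and 14 arrays, were instead highest in pig 5. The ratio contains the Sd value, so a low or high Sd level by itself raises or lowers it. In pigs 1 and 4, 9 and 8 of the 12 were lower in the YOd segment, with medians of -0.36 and -0.20, and in pigs 2, 7 and 8 the medians were 0.04, 0.07 and 0.06. Over the 8 genes without a saturated spot, 0 were higher in pigs 4 and 6, 1 in pig 1 and 7 in pig 5. The genes of a list share the pig's 2 arrays, so these counts describe those segments and carry no test. The summed signal of the lymphocyte markers in the WOd segment was close to that in the Sd segment in both pig 5 and pig 6, and the macrophage sum was 0.979-fold and 0.970-fold. The median ratio of the lymphocyte markers was -0.06 and -0.01 in these pigs, though single markers differed more. The part of cell composition in these ratios was not tested. In pig 2, IFI44 reached the floor in the YOd segment, with a ratio of -4.72, beside -0.47 and -0.50 in the other YOd pigs.

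**Figure D4:**
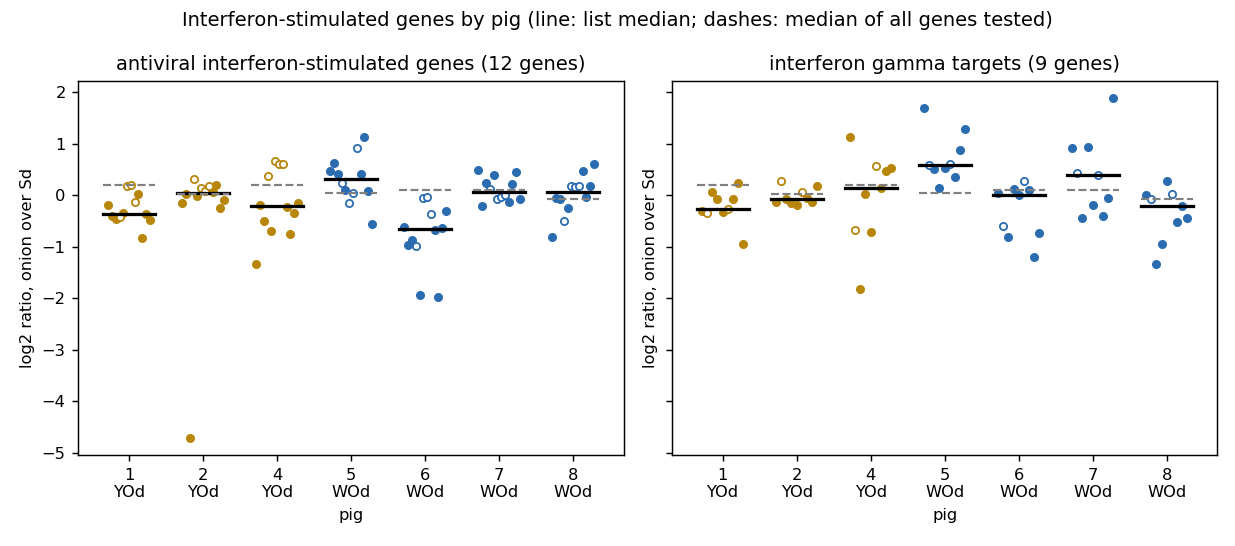
Log2 ratio of onion over Sd by pig for 12 antiviral interferon-stimulated genes (left) and 9 targets of IFNG (right), with the list's median as a line, the median of all genes tested as dashes, and open circles for genes saturated on any array. The antiviral genes lie below 0 in pig 6 (median -0.66) and mostly above 0 in pig 5 (median 0.32), and the lone point at -4.72 is IFI44 in pig 2.

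The 9 targets of IFNG that were tested followed the pigs in another way. In pig 5, 9 of 9 were higher in the WOd segment, with a median ratio of 0.58, and over the 7 genes without a saturated spot 7 were higher, with a median of 0.53. In pig 7 the median was 0.40 over all 9 but -0.06 over those 7, of which 3 were higher. In pig 1, where IFNG was higher in the YOd segment, 7 of the 9 targets were lower, with a median of -0.27. CXCL9, a chemokine for activated T cells, was 0.93 in pig 7 and -0.95 in pig 8, the pigs with the highest and the lowest IFNG ratio, while CXCL11 and GBP2 were -0.44 and -0.41 in pig 7. NOS2, the inducible nitric oxide synthase, had ratios of 1.28, 1.89 and -0.44 in pigs 5, 7 and 8. In pig 6 the median was 0.00, with 4 genes higher and 4 lower. On the Sd arrays CXCL9 was 4.40, 4.31 and 4.22 in pigs 8, 5 and 2, the 3 pigs with the most IFNG, and between 1.81 and 3.52 in the others. Of the 9 genes, 8 differed between pigs at an adjusted p under 0.05 in limma, beside 44.6% of all genes.

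The genes with the pattern most like that of IFNG over the 14 arrays, among 2393 genes, were ICAM2 (r = 0.93), SLA-DMB (0.92), PAQR7 (0.90), FABP5 (0.89) and AXL (0.87). ICAM2 is an adhesion molecule of endothelium and leukocytes, and SLA-DMB belongs to the loading of peptides on MHC class II. With the mean of the members, in which the saturated probes of ISG15 and MX1 take part, the most alike were AREG (r = 0.74), OASL (0.69), LTA (0.65), SLC5A5 (0.65) and LOC100152678 (0.65). OASL is an antiviral interferon-stimulated gene and LTA a cytokine of lymphocytes. The 2 arrays of a pig share the animal, so these r describe 7 animals rather than 14 independent samples.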

How the data were processed

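Mucosal RNA of 14 segments of 7 pigs was hybridised to one-colour Agilent arrays. Per the file headers, the deposited scanner output holds background-subtracted intensity from Feature Extraction 10.7.3.1, beside median and local background intensity. The authors also gave a table of log2 values for which RMA is the one tool that the submitters' processing notes name. That log2 table was used as an alternative only.

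Spots flagged as outliers were left out, spots of a probe averaged, each array scaled to its 75th percentile, low values set to the 40th percentile of all arrays (log2 -4.43), and log2 values taken. Names came from unversioned RefSeq accessions matched to a Sscrofa11.1 table, used for names only. 6686 probes matched. Each gene was represented by its brightest probe. limma 3.58.1 (R 4.3.3) was run with pig as a blocking factor, as in the study's methods, and p-values were adjusted by Benjamini-Hochberg over all genes tested. Once group means were removed, r between a pig's own arrays lay between 0.496 and 0.716. The r between arrays of different pigs was not computed, so these values do not test the pairing. The fits were tested on simulated data. The simulation had independent normal noise and no floor, saturation or slide shift, so it does not cover those limits of these data. Precision is limited by the number of arrays, with 1 array per segment. The p-values of the onion comparisons rest on how the within-pig ratio varies from pig to pig. Those of the difference between pigs rest on the spread between the segments of a pig. Members, lists and the naming rule (all members, pathway genes past both thresholds, and the 5 genes most like IFNG and most like the mean of the members) were chosen with earlier results of these data known. No pathway gene was called, so the single pathway genes and markers named above fall outside this rule. They are examples picked with their values known. Pig 3 and the other intestine models were not analysed here, nor were promoter and protein sequences.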

Additional observations from a re-analysis of the deposited data

Results flagged for a closer look

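MX2 in the Sd segment of pig 5 had a log2 level of 0.88, far below the other 6 Sd segments: its gap to the nearest of them took 0.666 of the whole range. This was 1 of 48 groups of values examined for such gaps over the 12 probes other than that of ISG15, and chance alone sets off about 1 in 20 groups. The unsaturated probes of MX1 and that of IRF7 were also lowest in this segment, without passing the same test. Without pig 5, the log2 fold change of MX2 over the pigs was -0.58 in place of -0.28, past the raw p threshold in limma and just under the fold threshold.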

How the results depend on the processing

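Counts of genes called depended strongly on the processing. Against 111 genes in YOd/Sd, there were 63 with quantile normalization, 65 with normexp background correction, 20 with no filter on dim genes, 1303 with every probe counted, 7 with the authors' processed values, 20 with no replicate block and 325 with the slide as a block. Against 29 in WOd/Sd, these were 12 with normexp, 62 with no floor, 17 with no filter, 327 with every probe, 11 with the authors' values, 10 with no replicate block and 87 with the slide. Against 30 over the 7 pigs, these were 16 with no scaling, 51 with no floor, 216 with every probe, 15 with the authors' values, 10 with no replicate block, 77 with the slide and 78 without pigs 2 and 7. Against 88 in the YOd effect minus the WOd effect, these were 48 with normexp, 47 with no filter, 1570 with every probe, 38 with the authors' values, 5 with no replicate block, 191 with the slide and 194 without pigs 2 and 7. Against 1071 genes that differed between pigs, there were 664 with no floor and 8311 with every probe. Leaving out 1 pig at a time gave 56 to 327 genes in YOd/Sd, 44 to 87 in WOd/Sd, 18 to 49 over the 7 pigs, 44 to 153 in the difference of effects and 674 to 1159 between pigs. Every probe counts probes in place of genes. The cause of the other shifts was not tested.

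The number of members called in YOd/Sd was 1, and 0 with no filter, with the authors' values and with no replicate block, where MX2 was -0.68, -0.74 and -0.68 and lost its call. It was 2 with the slide as a block, where IFNG (0.66) joined MX2, and 0 to 2 leaving out 1 pig. It was 0 to 1 leaving out 1 pig in WOd/Sd, over the 7 pigs and in the difference of effects. The members that differed between pigs numbered 4, and 2 with quantile normalization, 1 with no floor, 1 with no filter, 2 with the authors' values and 1 to 4 leaving out 1 pig. Over the 7 pigs MX1 changed sign with the mean of its probes (-0.062) and with the unsaturated probe (-0.22). USP18 changed sign with quantile normalization (-0.095), no scaling (-0.078), the mean of its probes (-0.099) and the unsaturated probe (-0.27), and ranged from -0.026 to 0.169 leaving out 1 pig, below 0 without pig 5. The log2 fold changes of IFNG, IRF1, IRF7 and MX2 over the 7 pigs kept their sign under all 21 alternatives run. With no scaling, IFNG in YOd/Sd was 0.06 in place of 0.37. The unsaturated probe and the removal of pigs 2 and 7 were chosen after seeing the data. The slide as a block was not run for the difference between pigs. Saturation sets an upper bound on what can be measured for ISG15, MX1 and USP18.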
